A study of Homo sapiens with 12 samples.

Results

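The genes described here are the 77 cytosolic ribosomal protein genes of the human genome that carry the standard symbols: 46 of the large ribosomal subunit (RPL and RPLP symbols) and 31 of the small subunit (RPS symbols and RPSA). They were chosen by symbol from the 60603 genes of the count tables, leaving out Y-linked genes and the paralogs whose symbols end in L. All 77 passed the filter on low counts. They were followed in OCI-LY1 and VAL, established human lines of diffuse large B-cell lymphoma. Each line had been transduced with an empty vector, with wild-type BCL7A or with delta27-BCL7A, a splice-site mutant form. BCL7A encodes a subunit of the SWI/SNF chromatin remodelling complex. Both BCL7A forms were supplied as their short and long isoforms from a vector that also encodes the fluorescent reporter ZsGreen1, and every group, controls included, went through 3 cycles of infection at a multiplicity of 2 and was sorted for the reporter. RNA was taken 10 days after transduction from OCI-LY1 and 17 days after it from VAL, so line and day cannot be told apart. The 6 groups had 2 libraries of polyadenylated RNA each, labelled as biological replicates from independent transductions. The comparisons asked how the ribosomal protein transcripts stood in the 2 lines and whether they moved when either form of BCL7A was added.

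Ribosomal proteins assemble with ribosomal RNA into the large and small subunits that together translate messenger RNA, and cells need them in matched amounts. Their transcripts are among the most abundant in dividing cells such as lymphoma cells. Most begin with a C followed by an unbroken run of C and T, the terminal oligopyrimidine (TOP) motif, through which mTOR and the RNA-binding protein LARP1 control their translation and stability. Some members also act outside the ribosome: free RPL5 and RPL11 bind MDM2 and so stabilise p53, and inherited loss of one copy of genes such as RPS19 or RPL35A causes Diamond-Blackfan anaemia.

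The windows around 9 transcription start sites show what most members share at their first transcribed base, and where some of the genes whose values stand out below depart from it. They were picked after the values were known. Each line runs 5′ to 3′ from 25 bases before the start site to its first 15 transcribed bases (RefSeq, build GRCh38.p14), and capitals mark the unbroken run of C and T from the start site on.
RPLP0: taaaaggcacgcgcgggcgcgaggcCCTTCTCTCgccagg
RPLP1: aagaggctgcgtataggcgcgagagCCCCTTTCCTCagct
RPL31: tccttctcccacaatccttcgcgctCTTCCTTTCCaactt
RPL22: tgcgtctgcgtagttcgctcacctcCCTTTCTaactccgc
RPL35A: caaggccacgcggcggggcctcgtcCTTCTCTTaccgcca
RPL12: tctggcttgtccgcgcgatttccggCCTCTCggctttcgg
RPL3: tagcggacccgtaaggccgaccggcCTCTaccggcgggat
RPS15: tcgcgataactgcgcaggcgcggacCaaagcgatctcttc
RPS4X: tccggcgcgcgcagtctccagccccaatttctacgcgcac
These windows lie at chr12:120201097-120201136 (minus strand) for RPLP0, chr15:69452793-69452832 (plus) for RPLP1, chr2:101002264-101002303 (plus) for RPL31, chr1:6199581-6199620 (minus) for RPL22 and chr3:197950165-197950204 (plus) for RPL35A. Those of RPL12, RPL3, RPS15 and RPS4X lie at chr9:127451392-127451431 (minus), chr22:39319609-39319648 (minus), chr19:1438371-1438410 (plus) and chrX:72277234-72277273 (minus). The run is 11 bases long in RPLP1, 10 in RPL31, 9 in RPLP0, 8 in RPL35A and 7 in RPL22. RPL3 has 4 such bases and RPS15 has 1, while RPS4X as listed starts on an A. RefSeq starts were listed for 62 of the 77 members. A C at the start followed by 4 bases that are each C or T, read on the transcribed strand, was found at a listed start of 46 of those 62 members (74.2%), against 1404 of all 27305 genes in the table (5.14%). This is a match of letters at annotated starts, not a measurement of where transcription began in these cells.

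The libraries held 21839547 to 24935893 gene counts. Levels (CPM, gene counts scaled to a common library size) are scaled by the trimmed mean of M values (TMM), and shares are percentages of a library's gene counts. All 6 B cell markers (MS4A1, CD79A, CD79B, PAX5 and CD22 among them) and all 3 germinal centre B cell markers (BCL6 and MME among them) reached 1 CPM in every group. Summed T cell markers reached at most 1.48 CPM, monocyte markers at most 3.03 CPM and plasma cell markers at most 1.45 CPM, and of 3 stromal or epithelial markers only EPCAM stood out, at 16.7 to 25.8 CPM in OCI-LY1 and 0 counts in VAL. The 2 VAL libraries with wild-type BCL7A stand apart from the other pairs. Comparing the counts of the 77 members between the replicates gave a chi-square, divided by its degrees of freedom, of 296 in this group and of 5.57 to 21.4 elsewhere; over all genes the values were 7.5 and 1.51 to 3.2. Counts of called genes are therefore also given without its libraries where that moves them. The shares and their permutation tests include these libraries. Leaving out libraries changes the shared error for all genes, so a change in called members there need not be particular to the members. With the OCI-LY1 libraries alone, for example, 2794 of 15242 genes were called for wild-type BCL7A against empty vector. The full fit called 1951 of 17057. All-gene counts of most other such fits are not given here.

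The 77 genes took 5.54% to 6.40% of all gene counts in the OCI-LY1 libraries and 10.4% to 12.2% in the VAL libraries. In OCI-LY1 the share was 6.402% and 6.237% with empty vector, 5.654% and 5.801% with wild-type BCL7A, and 5.544% and 5.538% with delta27-BCL7A. In VAL it was 11.77% and 11.57% with empty vector, 12.18% and 10.67% with wild-type BCL7A, and 10.41% and 10.44% with delta27-BCL7A. Every VAL library lay above every OCI-LY1 library, and within each line both mutant libraries lay below both empty vector libraries. The 95% Wilson interval of a single library, which covers counting error only, was far narrower than these gaps (6.392% to 6.412% for the first of them). A share cannot tell fewer ribosomal protein transcripts from more transcripts of other genes, and in bulk RNA fewer cells with a transcript and less of it per cell cannot be told apart.

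**Figure D1:**
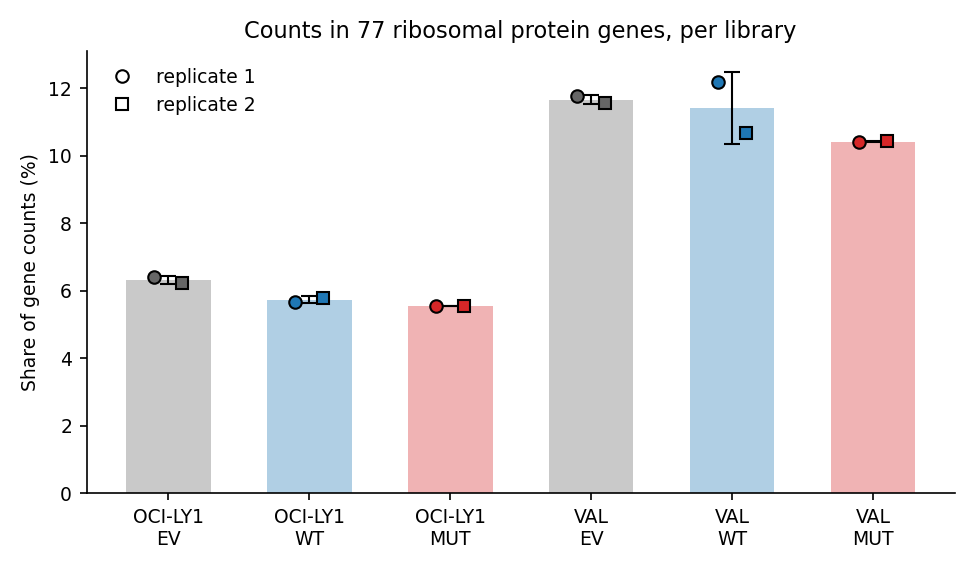
Share of gene counts (%, linear axis from 0) in the 77 ribosomal protein genes, by line and construct (EV, empty vector; WT, wild-type BCL7A; MUT, delta27-BCL7A). Bars are means of 2 libraries, error bars the SD, circles replicate 1 and squares replicate 2. The VAL bars stand at about 1.9 times those of OCI-LY1, and the 2 VAL wild-type libraries are the widest pair, at 12.18% and 10.67%.

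The share was 1.9-fold higher in VAL than in OCI-LY1 over the 3 constructs. An exact two-sided permutation test of the line labels within constructs, over 12 libraries, gave p = 0.00926, the smallest this design allows (0.0556 after Benjamini-Hochberg adjustment over 12 such tests). The ratio was 1.846 with empty vector, 1.995 with wild-type (a mean over libraries that differ) and 1.881 with delta27-BCL7A. With delta27-BCL7A the share was below that of the empty vector by 12.3% of its value in OCI-LY1 and by 10.7% in VAL, in 4 of 4 mutant libraries. The exact permutation test within lines, over 8 libraries, gave p = 0.0556 (adjusted 0.133), again the smallest it can give, so the design cannot bring this comparison under 0.05. With wild-type BCL7A the share was lower by 9.37% in OCI-LY1, where the groups did not overlap, and by 2.07% in VAL, where they did (exact permutation p = 0.167, adjusted 0.264). Wild-type against mutant, the share was 3.37% higher in OCI-LY1 and 9.61% higher in VAL (exact permutation p = 0.0556, adjusted 0.133). Counted against all reads, those given to no gene included, the order of wild-type and mutant in OCI-LY1 turned, with a log2 ratio of -0.03 in place of 0.05.

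The large subunit genes together held 1.42 times the counts of the small subunit genes in OCI-LY1 with empty vector (SD 0.0033, n = 2) and 1.5 times in VAL (SD 0.013, n = 2). The ratio of large to small subunit counts was 1.05-fold higher in VAL over the 3 constructs (exact permutation p = 0.00926, adjusted 0.0556). Taken as the ratio of the 2 subunits' median genes, the empty vector difference between the lines turned from log2 0.07 to -0.01. It thus depends on the summary used. The median log2 fold change of single genes between the lines was 0.93 for the large and 0.86 for the small subunit. Between constructs the ratio moved by at most 0.04 on the log2 scale within a line. The smallest of its 3 exact permutation p values was 0.278.

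All 77 members had a higher CPM in replicate 1 than in replicate 2 of the VAL wild-type group. Of all tested genes 49.2% were higher in replicate 1. The median difference was 1.17-fold, a log2 ratio of 0.23 (range 0.09 to 0.32), while the median of all genes was 0. In the other 5 groups the members' median replicate difference lay between -0.04 and 0.05 on the log2 scale. Replicate 1 lay above both empty vector libraries for 72 of 77 members and replicate 2 below both for 74. Against the mutant libraries, replicate 1 was above both for all 77, and replicate 2 was above both for 40 and below both for 31. Counts over all genes for single libraries against these pairs are not given here. The share of reads that fell in no annotated gene was 9.23% in replicate 1 and 10.78% in replicate 2; its part in this difference was not tested.

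**Figure D2:**
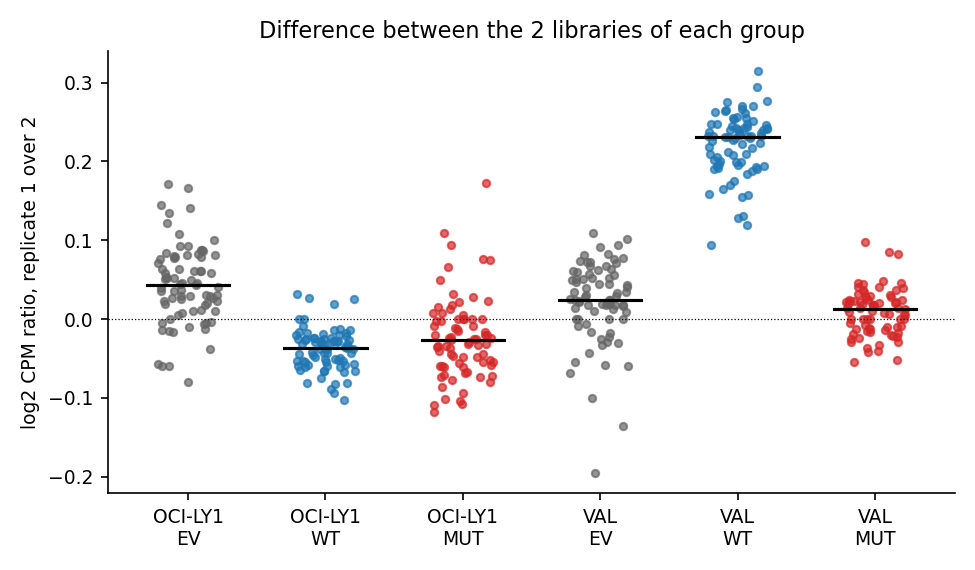
log2 ratio of CPM between replicate 1 and replicate 2 of each group, 1 point per ribosomal protein gene (77 per group), with the median as a black line. Points of the VAL wild-type group lie above 0 throughout, around a median of 0.23; the other 5 medians lie between -0.04 and 0.05.

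Within a library the members differed widely in level. Per kilobase of exon (all annotated exons of a gene merged), the highest mean levels over the 12 libraries included those of RPS12 at 1440 CPM, RPS18 at 1250, RPL19 at 1040 and RPL13A at 991. RPS12 belongs to the small subunit, as does RPS18, which sits at the head of that subunit; RPL19 and RPL13A are large subunit proteins. The lowest were RPS29 at 38.5 CPM per kilobase of exon, RPL17 at 44.9, RPL36A at 45.5, RPS10 at 60 and RPL22 at 64.7. The order depends on the length used. Per kilobase of coding sequence, a length added after the values were seen, RPS29 ranked at position 32 of 77, at 2260 CPM, while RPL17, RPS10, RPL36A and RPL22 stayed at the foot, at 201, 286, 567 and 789 CPM.
RPL17, RPS10 and RPL36A each share exons on the same strand with a readthrough transcript (RPL17-C18orf32, RPS10-NUDT3 and RPL36A-HNRNPH2), and reads that fit both genes can be lost in counting. Exons of 50 members overlap those of another annotated gene, 35 on the same strand and 29 on the opposite one. The strand setting of the counting is not given in the sources used here, so a member and an antisense partner cannot be told apart. Of the genes described in most detail below, RPS29 (ENSG00000213741.10) shares exons with the pseudogene RPL32P29 on its own strand and with LRR1 on the other, and RPL10 (ENSG00000147403.16) with SNORA70 and, on the other strand, DNASE1L1. RPLP0 (ENSG00000089157.16), RPS15 (ENSG00000115268.9) and RPS4X (ENSG00000198034.11) have no such overlap. The tables also held 1133 ribosomal protein pseudogenes, near-identical copies that make the division of reads uncertain for 76 of the 77 members. Their summed counts were 0.977 to 1.43 per 100 member counts, which does not bound the reads lost as not uniquely aligned. Such reads were 7.60% to 9.86% of all reads. In OCI-LY1 they were 7.67% and 7.60% with delta27-BCL7A and 8.39% and 9.49% with empty vector. In VAL they were 8.32% and 9.01% against 9.25% and 9.53%. Their part in the results was not tested.

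Between the lines, with empty vector in both, 73 of 77 members were higher in VAL and 1 was lower (edgeR quasi-likelihood test, Benjamini-Hochberg adjusted p under 0.05). Over all 17057 genes tested, 73.4% passed that threshold in either direction, 36.9% higher and 36.5% lower in VAL, so the members differ from other genes in direction more than in how often they passed. Their median log2 fold change was 0.90, against 0.01 for all genes. For 73 members both VAL libraries lay above both OCI-LY1 libraries and for 2 below (43.3% and 42.8% of all genes). The split of 73 and 1 was the same with DESeq2 and with RLE scaling, and leaving out 1 library at a time called 73 or 74 members.

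RPS4X, the X-linked gene of a core small subunit protein (chromosome X, 72255679 to 72277300, minus strand, GRCh38), was at 791 and 769 CPM in the OCI-LY1 libraries and at 3160 and 3120 CPM in VAL, a 4.02-fold difference (log2 2.01, SE 0.06, edgeR quasi-likelihood adjusted p = 4.53e-27). RPL12, part of the base of the factor-binding stalk (chromosome 9, 127447674 to 127451405, minus strand), was at 573 and 539 CPM against 2250 and 2170 CPM, a log2 fold change of 1.99 (SE 0.06, edgeR quasi-likelihood adjusted p = 2.97e-27). In both genes the lines stood far apart and the replicates close together. RPL7, a large subunit protein, was at 1180 and 1150 CPM in OCI-LY1 and at 4230 and 4130 CPM in VAL, a log2 fold change of 1.85 (SE 0.06). For RPL30, whose protein lies at the subunit interface, the values were 586 and 574 CPM against 2070 and 2030 CPM (log2 1.82, SE 0.06). RPL3, which lies near the peptidyl transferase centre (chromosome 22, 39312882 to 39320389, minus strand), went from 1510 and 1450 CPM to 5070 and 4840 CPM (log2 1.75, SE 0.06). These 5 genes headed the list, with log2 fold changes between 1.75 and 2.01, while the quartiles of all members were 0.70 and 1.07. At the other end, RPL35A, one of the Diamond-Blackfan genes (chromosome 3, 197949980 to 197956610, plus strand), was at 861 and 835 CPM in OCI-LY1 and at 690 and 694 CPM in VAL, a log2 fold change of -0.29 (SE 0.06, edgeR quasi-likelihood adjusted p = 1.76e-05). It was the one member called lower in VAL. RPS15, of the decoding region, was at 503 and 524 CPM against 500 and 536 CPM, so its libraries overlapped (log2 0.01, 95% interval -0.09 to 0.12). RPL17, at the exit of the peptide tunnel, had a log2 value of -0.05 (95% interval -0.17 to 0.07), and RPL8, which completes the 3 that did not pass, -0.10 (interval -0.21 to 0.00). RPL8 falls outside the rule for named genes and is given because it was 1 of these 3.

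**Figure D3:**
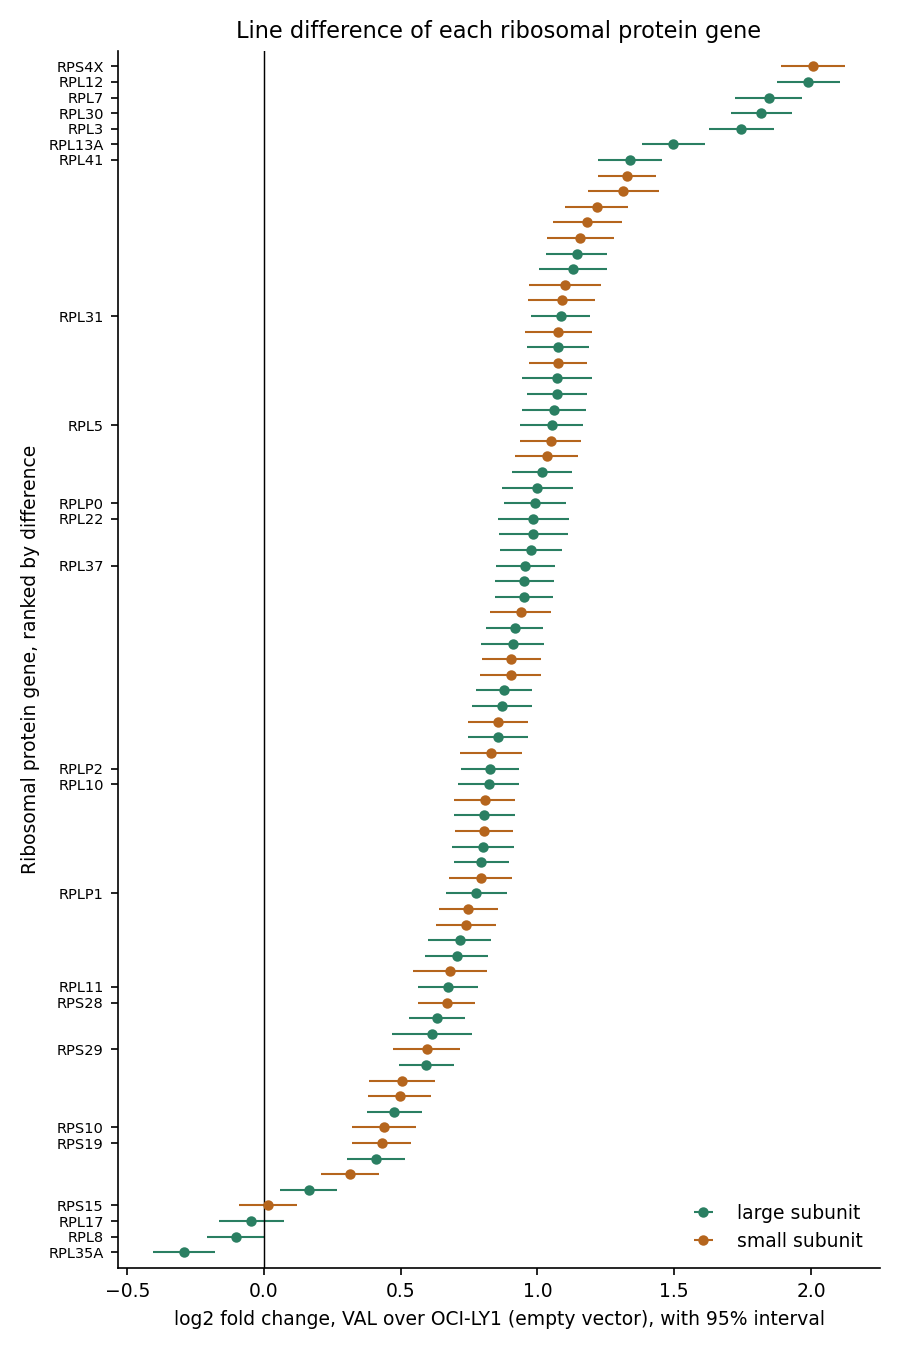
log2 fold change of each of the 77 ribosomal protein genes between VAL and OCI-LY1 with empty vector (2 libraries each), ranked, with the 95% interval of the edgeR fit and some genes labelled; green, large subunit; brown, small subunit. RPS4X and RPL12 lie near 2, 73 genes were called above 0, and RPL35A alone was called below it.

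Both subunits took part in the line difference. Of the 46 large subunit genes 43 were higher and 1 lower (median 0.93), and of the 31 small subunit genes 30 were higher and 0 lower (median 0.86). The 3 proteins of the P stalk, which recruits translation factors, differed by 0.99 for RPLP0, 0.83 for RPLP2 and 0.78 for RPLP1 on the log2 scale. RPL5 and RPL11, which with an rRNA form the particle that binds MDM2, differed by 1.05 and 0.67, and RPL22, a large subunit protein whose gene is recurrently lost in lymphoid cancers, by 0.99. Across the 77 members the log2 CPM of the empty vector groups correlated between the lines at a Pearson r of 0.919 and a Spearman rho of 0.893, as a description of 77 genes measured in the same libraries, so the order of the members was largely shared. Members of higher GC content had smaller line differences (r = -0.255, rho = -0.266). The median was 0.94 for the 46 members with the C and pyrimidine start and 0.89 for the 16 listed without it.

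With delta27-BCL7A, 46 of 77 members were lower than with empty vector in OCI-LY1 and 0 were higher (edgeR quasi-likelihood test, adjusted p under 0.05). Over all genes 19.6% were called in that comparison, 9.16% lower and 10.4% higher. In VAL 23 members were lower and 0 higher, against 5.13% of all genes called, 2.63% lower and 2.5% higher. The median log2 fold change of the members was -0.16 in OCI-LY1 and -0.15 in VAL, with -0.03 and -0.01 for all genes. Both mutant libraries lay below both empty vector libraries for 69 members in OCI-LY1 and for 74 in VAL (31.8% and 25.2% of all genes). For 1 member in OCI-LY1 they lay above (26.2% of all genes). The counts are not independent evidence gene by gene, since the members move together within a library, as the VAL wild-type pair shows.

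The 2 lines share no libraries in this comparison. Of the 46 members lower in OCI-LY1 and the 23 lower in VAL, 22 were the same genes, and 30 were called in neither line. The shared 22 were 47.8% of the first list and 95.7% of the second, while 59.7% of all 77 members were called in OCI-LY1. The overlap over all genes is not given here. Calls in the 2 lines also rest on a shared error estimate. With each line fitted alone, 63 members were lower in OCI-LY1, 1 in VAL and 1 in both. All-gene counts of these fits are not given here for this comparison. Across the 77 members the log2 fold changes of the lines correlated at r = 0.633 and rho = 0.674, as a description with no test. Those called in both lines with the smallest p included RPS29, RPL10, RPL31, RPLP0 and RPL37.

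**Figure D4:**
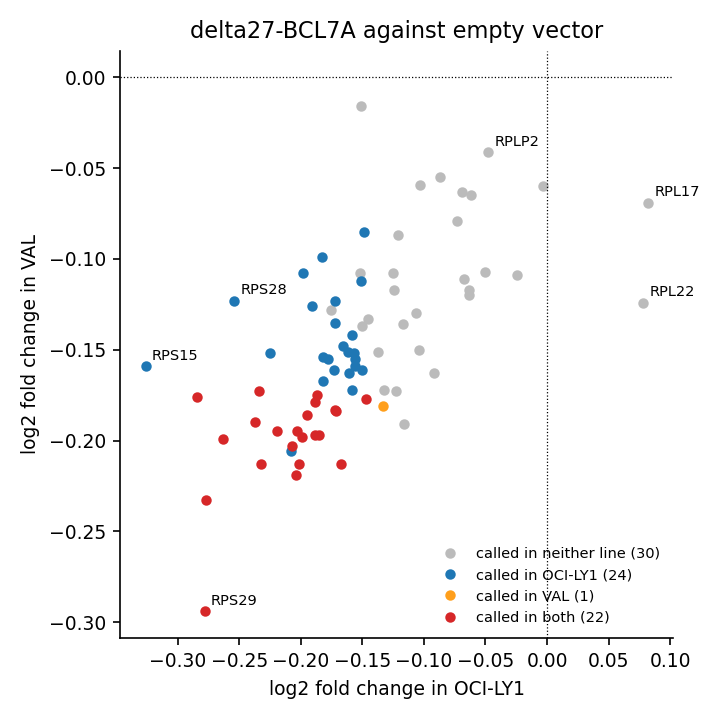
log2 fold change of each ribosomal protein gene with delta27-BCL7A against empty vector, in OCI-LY1 (horizontal) and VAL (vertical); colours give the lines in which the gene was called (edgeR quasi-likelihood adjusted p under 0.05). No gene lies above 0 in VAL, RPL17 and RPL22 lie above 0 in OCI-LY1, and RPS29 is low in both lines.

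RPS29, a small protein of the small subunit head and a Diamond-Blackfan gene (chromosome 14, 49570984 to 49599164, minus strand), was at 336 and 326 CPM with empty vector and at 272 and 275 CPM with delta27-BCL7A in OCI-LY1. In VAL it was at 513 and 488 CPM against 405 and 411 CPM. Neither pair overlapped, and the log2 fold changes were -0.28 (SE 0.06, adjusted p = 0.00123) and -0.29 (SE 0.06, adjusted p = 0.00362, edgeR quasi-likelihood test). RPL10, which is added late to the large subunit and is mutated in T cell leukaemia (chromosome X, 154389955 to 154409168, plus strand), was at 1100 and 1070 CPM against 945 and 940 CPM in OCI-LY1. In VAL it was at 1950 and 1890 CPM against 1660 and 1640 CPM. Its log2 fold changes were -0.20 and -0.22 (SE 0.05 for both, edgeR quasi-likelihood adjusted p = 0.0062 and 0.0134).

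Among the other large subunit genes, RPLP0, the P stalk base (chromosome 12, 120196686 to 120201235, minus strand), was at 1670 and 1650 CPM against 1400 and 1420 CPM in OCI-LY1 and at 3320 and 3280 CPM against 2850 and 2840 CPM in VAL. Its log2 fold changes were -0.23 and -0.21. RPLP1, its partner in the stalk (chromosome 15, 69452784 to 69456194, plus strand), was at 1010 and 997 CPM against 878 and 859 CPM in OCI-LY1 and at 1710 and 1730 CPM against 1480 and 1500 CPM in VAL, with log2 fold changes of -0.21 and -0.20. RPLP2, the remaining stalk gene, did not pass in either line, at -0.05 (95% interval -0.15 to 0.06) and -0.04 (interval -0.15 to 0.06). RPL31, beside the tunnel exit (chromosome 2, 101001715 to 101024032, plus strand), fell by 0.20 and 0.21, and RPL37, another large subunit protein, by 0.26 and 0.20 on the log2 scale. RPL34 reached -0.17 in OCI-LY1 and -0.21 in VAL, both called. RPL5 and RPL11 did not pass in either line: RPL5 stood at -0.12 and -0.14, RPL11 at -0.07 and -0.08. RPL22 was at 220 and 199 CPM with empty vector and 212 and 230 CPM with delta27-BCL7A in OCI-LY1, where the groups overlapped (log2 0.08), and at 418 and 411 CPM against 379 and 383 CPM in VAL (log2 -0.12); neither passed. By subunit, 29 of 46 large and 17 of 31 small subunit genes were lower in OCI-LY1, and 16 and 7 in VAL.

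The largest fall in OCI-LY1 was that of RPS15, mutated in chronic lymphocytic leukaemia (chromosome 19, 1438358 to 1440494, plus strand), from 503 and 524 CPM to 434 and 385 CPM. Its log2 fold change was -0.33 (SE 0.05, edgeR quasi-likelihood adjusted p = 2.06e-05), and the mutant libraries differed from each other by more than those of most members. In VAL RPS15 was at 500 and 536 CPM against 466 and 462 CPM, a log2 fold change of -0.16 that did not pass. RPS28, a small subunit protein near the exit of the mRNA (chromosome 19, 8321158 to 8323340, plus strand), went from 290 and 293 CPM to 251 and 238 CPM in OCI-LY1, and from 454 and 473 CPM to 428 and 422 CPM in VAL. It was called in OCI-LY1 (log2 -0.25, SE 0.05) and not in VAL (-0.12). Members with and without the C and pyrimidine start had near-equal medians, which were -0.15 and -0.16 in OCI-LY1 and -0.15 for both in VAL.

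By role, the calls with delta27-BCL7A were spread over the ribosome; over all genes 9.16% were lower in OCI-LY1 and 2.63% in VAL. Of 6 proteins in the peptide exit tunnel or around its opening (RPL4, RPL17, RPL23A, RPL26, RPL35 and RPL39), 4 were lower in OCI-LY1 and 0 in VAL (medians -0.15 and -0.12). Of 4 at the mRNA channel and decoding site (RPS2, RPS3, RPS15 and RPS23), 3 were lower in OCI-LY1 and 0 in VAL (medians -0.17 and -0.16). Among 6 that join the small subunit late (RPS3, RPS10, RPS12, RPS20, RPS26 and RPS29), 2 were lower in OCI-LY1 and 1 in VAL. Of 19 Diamond-Blackfan genes, 10 were lower in OCI-LY1 and 4 in VAL, with medians of -0.15 and -0.12. Of 6 members mutated in blood cancers (RPL5, RPL10, RPL11, RPL22, RPS15 and RPSA), 3 were lower in OCI-LY1 and 1 in VAL. These medians stood close to those of all 77 members, and the lists overlap one another. The calls moved with the model. Without both VAL wild-type libraries, the VAL counts were 4 of 6 for the exit tunnel, 4 of 4 for the decoding site, 4 of 6 for the late-joining proteins, 13 of 19 for the Diamond-Blackfan genes and 5 of 6 for those mutated in blood cancers. With the GC and length correction, the OCI-LY1 counts of lower members were 1, 0, 0, 1 and 1 in the same order.

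These counts depend on the model and on single libraries. In 1 alternative, each library's trends with the GC content and length of transcripts were removed. With this correction 15 members were lower in OCI-LY1, 12 in VAL and 9 in both. The member medians were -0.05 in OCI-LY1 and -0.10 in VAL, against -0.03 and -0.02 for all genes. Of all 17057 genes, the corrected fit called 2482 in OCI-LY1 and 1135 in VAL, in either direction. Of the other members, 2 then rose in OCI-LY1, RPLP2 by 0.23 (edgeR quasi-likelihood adjusted p = 0.00459) and RPL17 by 0.15 (adjusted p = 0.0441). RPS15, RPS29, RPL31 and RPL34 lost their OCI-LY1 calls under that correction, at -0.05, -0.12, -0.08 and -0.06, while RPLP0, RPLP1, RPL10, RPL37 and RPS28 kept theirs. In VAL, RPS29 (-0.20), RPL34 and RPL37 lost their calls, and RPL10, RPLP0, RPL31 and RPLP1 kept theirs. Leaving out 1 library left 9 to 23 members in OCI-LY1 (9 without mutant replicate 2, 13 without empty vector replicate 1) and 0 to 6 in VAL (0 without empty vector replicate 1 or mutant replicate 1, 1 without mutant replicate 2, 6 without empty vector replicate 2). In the VAL libraries fitted alone only RPS29 was called. Without both VAL wild-type libraries, whose spread enters the shared error, 55 members were called lower in OCI-LY1, 66 in VAL and 54 in both. All-gene counts of that fit are not given here, so the rise need not be particular to the members. Reads of low alignment quality were fewer with the mutant in OCI-LY1, at 3.92% and 3.01% against 4.8% and 6.90% in the controls, and less so in VAL, at 3.87% and 5.66% against 4.72% and 5.76%; their part in the result was not tested. Pseudogene counts per 100 member counts were 1.07 and 0.977 with the mutant and 1.18 and 1.43 in its controls in OCI-LY1, and 1.10 and 1.32 against 1.21 and 1.37 in VAL (exact permutation p = 0.111, adjusted 0.222, over 8 libraries). Across members the OCI-LY1 change was more negative at higher GC content (r = -0.256), while in VAL r was 0.099.

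**Figure D5:**
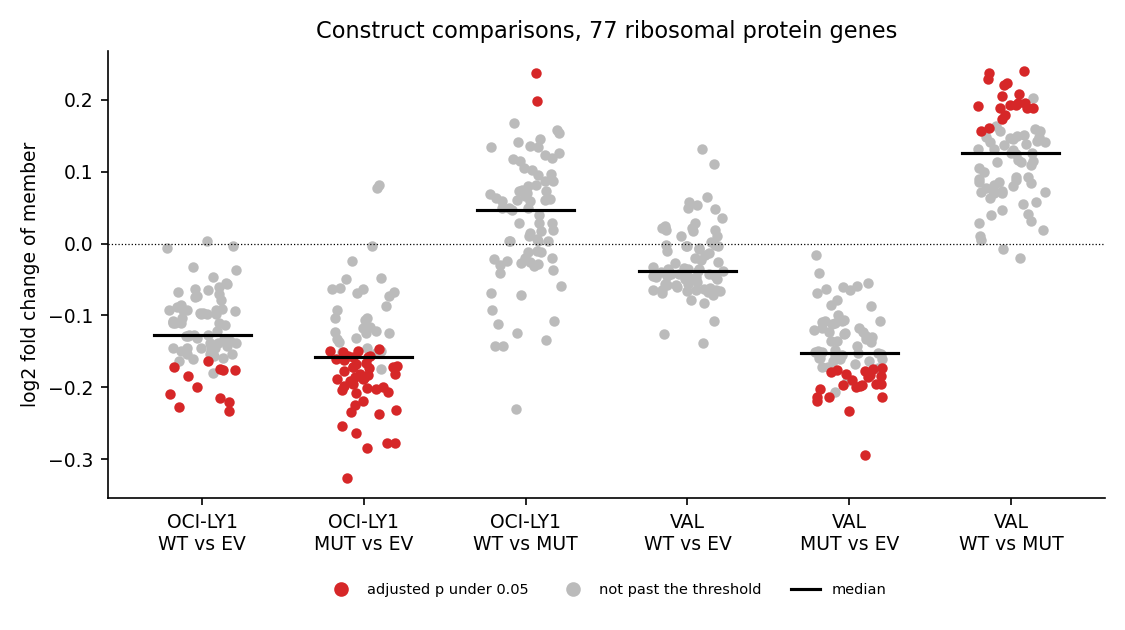
log2 fold change of the 77 ribosomal protein genes in the 6 construct comparisons within lines (EV, empty vector; WT, wild-type BCL7A; MUT, delta27-BCL7A), 1 point per gene, red where the edgeR quasi-likelihood adjusted p was under 0.05 and grey otherwise, with the median as a black line. Both mutant columns centre near -0.15, the VAL wild-type column near -0.04, and WT vs EV shares its empty vector libraries with MUT vs EV.

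With wild-type BCL7A, 12 of 77 members were lower than with empty vector in OCI-LY1 and 0 higher (edgeR quasi-likelihood test, adjusted p under 0.05), against 11.4% of all genes called, 5.21% lower and 6.23% higher. The median log2 fold change was -0.13, with -0.01 for all genes, and for 72 members both wild-type libraries lay below both empty vector libraries (28.4% of all genes) and for 0 above (25.7%). Of the 12, 9 were small subunit genes. RPS29 went from 336 and 326 CPM to 275 and 291 CPM (log2 -0.23, SE 0.06, edgeR quasi-likelihood adjusted p = 0.0119), and RPS10, a protein of the small subunit head, from 125 and 122 CPM to 107 and 105 CPM (log2 -0.22, SE 0.06). Neither pair overlapped. RPS25, which several viral RNAs need for initiation, fell by 0.21 (SE 0.06) on the log2 scale. RPLP0, RPLP1, RPLP2, RPL5, RPL11 and RPL22 did not pass; RPLP0 stood at -0.11 and RPL5 at -0.11. With the GC and length correction 15 members were lower, of which 5 were among the 12. That fit called 2202 of all 17057 genes in either direction. RPS29, RPS10 and RPS25 were not among these 5, at -0.21, -0.17 and -0.20. The count fell to 0 without empty vector replicate 1 or wild-type replicate 1 and to 2 without wild-type replicate 2, and rose to 47 with the OCI-LY1 libraries alone and to 37 without both VAL wild-type libraries.

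In VAL no member was called with wild-type BCL7A against empty vector by edgeR's quasi-likelihood test, DESeq2 or limma-voom. Over all genes edgeR called 1.62% (0.885% higher, 0.733% lower). An unadjusted edgeR p under 0.05 was found for 4 members, and the share of all genes under that threshold is not given here. The members' median log2 fold change was -0.04. The 2 wild-type libraries lay on either side of the empty vector libraries for most members: RPLP0 was at 3530 and 2980 CPM against 3320 and 3280 CPM, and RPS4X at 3290 and 2800 CPM against 3160 and 3120 CPM. For 1 member the wild-type libraries lay below both empty vector libraries (18% of all genes). Without wild-type replicate 1 the members' median was -0.16, and without wild-type replicate 2 it was 0.08. The direction in this group thus rests on which of its libraries is used.

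Wild-type against delta27-BCL7A, 2 members were higher in OCI-LY1 (edgeR quasi-likelihood test), against 3.05% of all genes called, 1.68% higher and 1.38% lower. RPS15 was at 478 and 487 CPM with wild-type and 434 and 385 CPM with mutant BCL7A (log2 0.24, SE 0.05, edgeR quasi-likelihood adjusted p = 0.00725), and RPS28 at 274 and 287 CPM against 251 and 238 CPM (log2 0.20, SE 0.05, adjusted p = 0.0258). Neither pair overlapped, and both calls were lost without mutant replicate 2 or without either wild-type library. For 41 members both wild-type libraries lay above both mutant libraries and for 12 below (24.9% and 23.5% of all genes), with a median log2 fold change of 0.05. Fitted with the OCI-LY1 libraries alone, 15 members were higher and 2 lower. The all-gene count of that fit is not given here. With the GC and length correction RPS28 and RPL23 were higher, RPL17, RPS10 and RPS24 lower, and the median was -0.03; RPS15 lost its call, at 0.09. RPL23 and RPS24 are named only as 2 of these 5. The corrected fit called 692 of all 17057 genes in either direction.

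In VAL 19 members were higher with wild-type than with delta27-BCL7A and 0 lower (edgeR quasi-likelihood test), against 9.07% of all genes called, 4.54% higher and 4.53% lower. The median was 0.13, and for 40 members both wild-type libraries lay above both mutant libraries (26.3% of all genes) and for 0 below (24.4%). RPS29 was at 528 and 436 CPM against 405 and 411 CPM (log2 0.24, SE 0.06, edgeR quasi-likelihood adjusted p = 0.00934). RPL10 was at 2090 and 1790 CPM against 1660 and 1640 CPM (log2 0.24, SE 0.05). In both genes wild-type replicate 1 lay far above the mutant and replicate 2 only slightly. RPLP1, at 1890 and 1600 CPM against 1480 and 1500 CPM, and RPS19, the gene most often mutated in Diamond-Blackfan anaemia, at 1750 and 1500 CPM against 1400 and 1380 CPM, both had a log2 fold change of 0.22 (SE 0.05). RPS28 was the one member called higher in both lines. Without wild-type replicate 1 the members' median was 0.01, and without wild-type replicate 2 it was 0.24. The count of members called fell when either mutant replicate was left out. It was 0 with the VAL libraries alone and 9 with the GC and length correction, which called 1316 of all 17057 genes in either direction. Under that correction 6 of the 19 calls were kept and the median was 0.04; RPL10, RPLP1 and RPS19 were among the 9, and RPS29, at 0.12, was not.

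The difference between the lines in the response to each construct was tested directly, as VAL minus OCI-LY1. By edgeR's quasi-likelihood test no member was called for wild-type against empty vector, mutant against empty vector or wild-type against mutant, against 3.89%, 1.51% and 0.451% of all genes. Of all genes 1.25% were higher and 2.63% lower in the first, 0.281% and 1.23% in the second, and 0.27% and 0.182% in the last. Unadjusted p values under 0.05 were found for 9, 2 and 9 members, and DESeq2 and limma-voom called 0 in each. The share of all genes under the unadjusted threshold is not given here. For the mutant the members' median difference was 0.01 (range -0.20 to 0.17), with RPL22 lowest at -0.20 (95% interval -0.38 to -0.02) and RPS15 highest at 0.17 (95% interval 0.02 to 0.32). For wild-type BCL7A the median was 0.09, and RPS10 came nearest to the threshold at 0.27 (SE 0.08, edgeR quasi-likelihood adjusted p = 0.0558). Both wild-type comparisons depended on the VAL wild-type libraries. Members were called higher in VAL without replicate 2, and none was without replicate 1. All-gene counts of these fits are not given here.

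Genes related to the 77 were followed as lists. Of 8 L-suffixed paralogs 6 were tested. Between the lines 2 of them were higher and 3 lower in VAL, a share near the 73.4% of all genes called: RPL22L1, the paralog of RPL22, was at 41.9 and 43.2 CPM in OCI-LY1 and at 206 and 196 CPM in VAL (log2 2.24, SE 0.07, edgeR quasi-likelihood adjusted p = 1.43e-23), while RPL39L was at 53.3 and 52.8 CPM against 26.7 and 27.3 CPM (log2 -0.97, SE 0.07). RPL39L was also lower with both constructs in OCI-LY1, by -0.24 with wild-type and -0.19 with delta27-BCL7A, which share their empty vector libraries; the second call was lost without both VAL wild-type libraries (-0.16) and with the GC and length correction (-0.08). RPL36AL, the paralog of RPL36A, was called in no comparison. Of 8 dedicated chaperones of ribosomal proteins, 2 were higher and 0 lower with delta27-BCL7A in OCI-LY1 (10.4% of all genes higher) and none was called in VAL.

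Of 14 regulators of TOP transcripts, 8 were higher and 2 lower with delta27-BCL7A in OCI-LY1, and 3 were higher and 0 lower in VAL. Over all genes 10.4% were higher and 9.16% lower in the first comparison, 2.5% and 2.63% in the second. With the GC and length correction 2 regulators were higher and 0 lower in each line. Of all 17057 genes that fit called 2482 in OCI-LY1 and 1135 in VAL, in either direction. LARP1, which binds the TOP motif, was at 421 and 434 CPM with empty vector and 505 and 489 CPM with delta27-BCL7A in OCI-LY1 (log2 0.22, SE 0.05, edgeR quasi-likelihood adjusted p = 0.00314). In VAL it was at 418 and 429 CPM against 489 and 479 CPM (log2 0.19, SE 0.05, adjusted p = 0.0273, same edgeR test), a call lost with the VAL libraries alone. Neither pair overlapped. EIF4EBP2, a repressor of cap-dependent translation, was higher by 0.19 and 0.16, and CNBP, which binds TOP transcripts, by 0.23 in OCI-LY1 and 0.01 in VAL, the last not called. In OCI-LY1, EIF4E, the cap-binding protein, was higher by 0.26 with delta27-BCL7A (edgeR quasi-likelihood adjusted p = 0.000716), but at 0.00 with the GC and length correction. With wild-type BCL7A 5 of the 14 were higher in OCI-LY1 (6.23% of all genes) and none was called in VAL. Wild-type against mutant, 1 was lower in OCI-LY1 and 5 in VAL, LARP1 among the latter at -0.20 (0 higher in both; 1.38% and 4.53% of all genes lower). The VAL count was 2 without wild-type replicate 1, where LARP1 was at -0.09 and not called, 6 without replicate 2 and 1 with the GC and length correction. Between the lines RPTOR, the mTOR complex subunit that recruits its substrates, was at 171 and 184 CPM in OCI-LY1 and at 33.3 and 35.3 CPM in VAL (log2 -2.37, SE 0.07). RPS6KB2, a kinase of the small subunit protein RPS6, was lower in VAL by 1.08 on the log2 scale.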

How the data were processed

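The values deposited for each library are unnormalized gene-level read counts, made by the authors with STAR 2.6.1b and HTSeq 0.11.2 on build GRCh38 (hg38), per the submitters' processing notes; the annotation release, strand setting and filters are not given in the sources used here. Reads that HTSeq gave to no gene were left out of library totals, apart from 1 alternative share. RNA was selected for polyadenylation and, per the labels, made into libraries with a strand-marking kit. Groups came from the sample labels. Genes were matched by identifier to GENCODE 29 (58528 of 60603) for position and overlap. Counts were fitted with edgeR 4.0.16 in R 4.3.3 (TMM scaling, minimum count of 10, robust quasi-likelihood fit of 6 group means over 12 libraries, 17057 genes tested), and p-values were adjusted by Benjamini-Hochberg over all tested genes, with a threshold of 0.05. A group of 2 libraries leaves 6 residual degrees of freedom in all, and the common biological coefficient of variation was 3.7%. Shares of counts, subunit ratios and pseudogene ratios were compared by exact two-sided permutation tests over libraries (scipy 1.17.1). The scripts were tested on simulated counts with changes larger than the construct changes reported here, added to single genes drawn at random. That test does not cover small changes shared by many genes. DESeq2 1.42.0, limma-voom (limma 3.58.1), RLE scaling, other filters, a GC and length correction (mgcv 1.9.3), a replicate block, fits of each line alone and fits without each library were the alternatives.

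The members and lists were chosen with earlier results of these data known. Named genes were, in each comparison, up to 5 members per direction with the largest change among those called, up to 6 called in both lines, the 5 highest and 5 lowest per length, and RPLP0, RPLP1, RPLP2, RPL5, RPL11 and RPL22 throughout; of the other lists, up to 3 called genes per comparison and the paralogs of named members. Some other members are given as examples. The coding length, the start-site comparison and printed windows, the pseudogene measures, the counts of non-overlapping libraries, the comparison of replicates within groups and the fit without both VAL wild-type libraries were added after seeing the data. Some genes that the rule names are not reported here.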

Additional observations from a re-analysis of the deposited data

Results flagged for a closer look

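LARP4, an RNA-binding protein of the LARP family that binds poly(A) tails, differed between the lines in its response to both constructs. In OCI-LY1 it was at 147 and 144 CPM with empty vector, 174 and 168 CPM with wild-type and 185 and 201 CPM with delta27-BCL7A. In VAL the values were 191 and 182, 168 and 180, and 211 and 198 CPM. The test of the difference itself, VAL minus OCI-LY1, gave -0.33 on the log2 scale for wild-type against empty vector (edgeR quasi-likelihood adjusted p = 0.00632) and -0.27 for mutant against empty vector (adjusted p = 0.0471, same test); both use the same empty vector libraries. With the GC and length correction they were -0.07 (adjusted p = 0.586) and -0.05 (adjusted p = 0.805). The mutant difference also missed the threshold with limma-voom (adjusted p = 0.0624), with a minimum count of 50 (0.0642) and with the replicate block (0.0626). Leaving out single libraries ended the mutant call in 5 of 8 fits: OCI-LY1 empty vector replicate 1 (adjusted p = 0.118) or 2 (0.212), OCI-LY1 mutant replicate 2 (0.405), VAL empty vector replicate 1 (0.119) and VAL mutant replicate 2 (0.175). The wild-type call was lost without OCI-LY1 wild-type replicate 1 (adjusted p = 0.0548, edgeR quasi-likelihood test).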

How the results depend on the processing

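Of 112 named values past the threshold, DESeq2 kept 104 with their direction, limma-voom 106, RLE scaling 107 and the GC and length correction 66. Fits of each line alone kept 45 and lost 27 of those they could test. These figures pool the large differences between the lines, which held in nearly every fit, with calls between constructs. The latter were less stable, as the counts below show. Counts of members called are given next in the order stated. With no filter on low counts, OCI-LY1 wild-type against empty vector gave 24, VAL mutant against empty vector 39 and the line difference in the wild-type response 1; a minimum count of 50 also gave 1 for the last. With the GC and length correction OCI-LY1 mutant against empty vector gave 17, OCI-LY1 wild-type against mutant 5, VAL mutant against empty vector 12 and VAL wild-type against mutant 9. Fitting each line alone gave 47 for OCI-LY1 wild-type against empty vector, 17 for OCI-LY1 wild-type against mutant, 1 for VAL mutant against empty vector and 0 for VAL wild-type against mutant. Without both VAL wild-type libraries these were 37, 17 and 66 for the first 3, and 1 member, RPL22 at -0.24, passed for the line difference in the mutant response.

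Libraries were not treated as paired by replicate number. Deviations of same-numbered libraries correlated over all genes between -0.051 and 0.043. Noise in low-count genes weakens such correlations, so they cannot exclude pairing. Over the 77 members alone these correlations were 0.067, -0.685 and 0.023 in OCI-LY1 and 0.561, 0.359 and 0.141 in VAL. With the replicate block alone, the count for the line difference in the wild-type response was 1 in place of 0, and no other count moved by over 1.5 times. The replicate block with the GC and length correction gave 29 for OCI-LY1 wild-type against empty vector, 19 for OCI-LY1 mutant against empty vector, 11 for OCI-LY1 wild-type against mutant, 2 for VAL wild-type against empty vector and 11 for VAL wild-type against mutant. RPLP2 in OCI-LY1 with the mutant turned to 0.23 under the GC and length correction and 0.228 with the block added. EIF4E turned to -0.004 there and to -0.072 between the lines under both.

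Leaving out 1 library gave 0 to 8 members for OCI-LY1 wild-type against empty vector, 9 to 23 for mutant against empty vector and 0 to 2 for wild-type against mutant; in VAL 0 to 42, 0 to 6 and 0 to 73; for the line differences 0 to 43, 0 to 0 and 0 to 54; between the lines 73 to 74. The lone library of a group was assumed to vary like the others. All-gene counts of these fits are not given here, so the changes need not be particular to the members. The log2 share ratio ranged from -0.161 to -0.123, -0.208 to -0.171 and 0.0291 to 0.0662 in OCI-LY1, from -0.129 to 0.0618, -0.175 to -0.15 and 0.0335 to 0.224 in VAL, and from 0.866 to 0.904 between the lines. The log2 subunit ratio ranged, in the same order, from 0.0216 to 0.0267, -0.0189 to -0.00763, 0.0318 to 0.0431, -0.0111 to 0.00628, -0.00384 to 0.0135, -0.0135 to -0.000959 and 0.065 to 0.0824.

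With reads given to no gene in the denominator, the log2 share ratio was -0.135 for OCI-LY1 mutant against empty vector and turned to -0.0281 for wild-type against mutant; without mitochondrial genes it was 0.849 between the lines. With medians over members the log2 subunit ratio was 0.00128, -0.0687 and 0.07 in OCI-LY1 and -0.0806, -0.018 and -0.0626 in VAL, and turned to -0.0138 between the lines. The cause was not tested for any of these. With 2 libraries per group, differences in response between the lines were the least precise.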
